A study of Rattus norvegicus with 43 samples.

Results

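The cytochromes P450 Cyp3a9, Cyp2d5, Cyp4b1 and Cyp1a1, the aldo-keto reductase Akr1c19 and the efflux pumps Abcb1a, Abcg2 and Abcc3 were followed in rat distal colon across 6 diets. They are 8 of the 14506 gene symbols on the array. Each symbol had 1 probe set that carried no other symbol, and that probe set was used. The genes were chosen by their differences between diets on these same arrays, those between the maize diets above all. Their values in the maize comparisons, and in the comparison of wheat with the same HAMS arrays, are therefore a description and support nothing further. Of the 8 genes, 7 passed the filter on low signal and were among the 10934 genes tested, and Cyp1a1 did not pass it.

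The samples were pieces of distal colon from Sprague Dawley rats aged 11 weeks, with 1 array per rat and 43 arrays in all. The labels give the diets as codes: 5 rats were on CON, the control diet, 7 on LAMS, 8 on HAMS, 9 on HAMSB, 6 on LAW and 8 on HAW. From what is known of the study, LAMS and HAMS are low- and high-amylose maize starch, HAMSB is butyrylated high-amylose maize starch, and LAW and HAW are low- and high-amylose wheat, each in a Western-type diet that the CON rats did not receive. The labels name no mutation and no drug. High-amylose starch resists digestion and is fermented in the colon to butyrate and other short-chain fatty acids, and butyrylated starch carries butyrate to the colon as an ester.

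Cytochromes P450 are haem enzymes that insert oxygen into drugs, steroids and fatty acids, with electrons from cytochrome P450 reductase and cytochrome b5. Aldo-keto reductases reduce carbonyl groups of steroids and reactive aldehydes. ABC efflux pumps spend ATP to move drugs and their conjugates out of the epithelium. Abcb1a, a P-glycoprotein, and Abcg2 sit in the apical membrane that faces the gut lumen, and Abcc3 in the basolateral membrane that faces the blood. The receptors encoded by Nr1i2 (the pregnane X receptor), Nr1i3 (the constitutive androstane receptor) and Ahr (the aryl hydrocarbon receptor) are known to induce many genes of this kind in liver and gut.

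Promoters of 5 of the genes are shown because their levels moved most between the maize diets, some of them together. Each window is the 250 bases before the start site in RefSeq's table on the rat build GRCr8, written 5′ to 3′ on the gene's strand. The motifs searched, on both strands, were the TATA box TATAAA, the box named CCAAT, the GC box GGGCGG, the nuclear receptor motif AGGTCA, its variant AGTTCA from elements of the pregnane X receptor, and GCGTG, the core of the site that the aryl hydrocarbon receptor binds. Capitals mark the matches. No base lay in more than 1 match. The windows were chr12:21960161-21960410 (minus strand) for Cyp3a9, chr7:115784488-115784737 (minus strand) for Cyp2d5, chr5:134393117-134393366 (minus strand) for Cyp4b1, chr17:70913666-70913915 (plus strand) for Akr1c19 and chr4:26397649-26397898 (minus strand) for Abcb1a.
Cyp3a9: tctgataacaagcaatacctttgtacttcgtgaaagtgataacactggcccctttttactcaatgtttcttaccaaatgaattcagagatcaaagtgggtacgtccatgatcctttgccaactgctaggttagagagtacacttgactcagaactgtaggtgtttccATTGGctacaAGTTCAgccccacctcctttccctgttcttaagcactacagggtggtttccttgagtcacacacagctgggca
Cyp2d5: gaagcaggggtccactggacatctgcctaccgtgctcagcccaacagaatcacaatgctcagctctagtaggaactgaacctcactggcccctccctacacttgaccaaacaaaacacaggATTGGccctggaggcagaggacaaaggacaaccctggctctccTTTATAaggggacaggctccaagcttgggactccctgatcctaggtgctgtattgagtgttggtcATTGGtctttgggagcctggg
Cyp4b1: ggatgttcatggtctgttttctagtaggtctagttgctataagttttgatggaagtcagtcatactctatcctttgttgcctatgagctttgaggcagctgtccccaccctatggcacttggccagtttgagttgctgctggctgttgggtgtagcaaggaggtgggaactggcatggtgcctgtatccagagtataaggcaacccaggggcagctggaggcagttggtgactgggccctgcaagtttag
Akr1c19: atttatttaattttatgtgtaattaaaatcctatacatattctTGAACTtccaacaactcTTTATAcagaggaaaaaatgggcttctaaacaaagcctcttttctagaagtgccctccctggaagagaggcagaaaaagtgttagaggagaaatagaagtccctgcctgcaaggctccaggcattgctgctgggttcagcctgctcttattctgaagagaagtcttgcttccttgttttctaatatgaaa
Abcb1a: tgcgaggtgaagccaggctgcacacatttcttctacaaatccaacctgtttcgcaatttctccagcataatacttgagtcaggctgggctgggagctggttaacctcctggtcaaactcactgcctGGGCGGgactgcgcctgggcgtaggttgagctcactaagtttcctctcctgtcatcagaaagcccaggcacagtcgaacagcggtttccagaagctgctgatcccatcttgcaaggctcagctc

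The Cyp3a9 window held CCAAT on the opposite strand (read as ATTGG, first base at -83 from the start) and the receptor motif AGTTCA on the gene's strand at -73. The Akr1c19 window held the same motif at -207 and the TATA box at -190, both on the opposite strand. In the Cyp2d5 window the TATA box stood on the opposite strand at -86, and CCAAT, also on that strand, at -129 and -21. Abcb1a had GGGCGG at -124, and the Cyp4b1 window held none of these letters. Cyp2d5 and Cyp4b1, whose levels moved together, shared no match. The Abcg2 window, not printed, held GGGCGG at 4 places. Over all 33469 windows of this length, 12.9% held TATAAA and 34.0% held CCAAT. The GC box was in 30.5% of them, AGGTCA in 14.1%, AGTTCA in 12.2% and GCGTG in 25.9%. The receptor motif AGGTCA was in none of the 6 windows, and neither was GCGTG. RefSeq's table gave windows for 6 of the 8 genes, and Cyp1a1 and Abcc3 are named only. The start sites of Cyp2d5, Cyp4b1, Abcb1a and Abcg2 in that table lie inside the gene's annotated span, 20519 bases from its end for Cyp4b1 and 90808 for Abcb1a.

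The tissue and the arrays were checked on marker genes. All 14 measured genes of absorptive colonocytes and all 8 of goblet cells passed the low-signal filter, while 7 of 9 hepatocyte genes, with albumin among them, did not. Of 14 measured genes of B cells and germinal centres, 11 passed, and the mean of those 11 gave each array a lymphoid level. HAMS had the highest, 7.88 ± 1.3 (SD, n = 8; 5.79 to 9.32), while LAMS was at 6.76 ± 1.36 (n = 7; 5.67 to 8.86) and HAMSB at 6.56 ± 0.91 (n = 9; 5.85 to 8.28). Ms4a1, Fcer2 and Cd72 were the B cell genes under the floor. The absorptive colonocyte genes averaged 9.10 ± 0.53 on the HAMS arrays, 9.42 ± 0.26 on LAMS and 9.58 ± 0.21 on HAMSB. Their list includes Epcam, Krt8, Cdh17 and Vil1, and how far its mean is particular to absorptive cells within the epithelium was not tested. The interquartile range of the values was 2.68 on HAW replicate 8 and 2.72 on HAMS replicate 6, and at least 2.95 on the other arrays. The file names in the labels are written in 3 styles, and 4666 genes (42.7%) followed the style with diet in the model. All 8 HAMS arrays share 1 style with 3 LAMS, 5 HAMSB, 3 HAW and 1 LAW array. None of the 7 tested genes followed the style past the threshold (limma, adjusted p from 0.0608 for Abcb1a to 0.871 for Cyp4b1). The code-first style, that of the HAMS arrays, was still lower than the lower-case style in 3 of them. The terms were -0.54 ± 0.20 (SE) for Abcb1a, -0.45 ± 0.21 for Abcg2 and -0.35 ± 0.17 for Cyp3a9. For the other tested genes they lay between -0.10 and 0.13. Because the samples are bulk tissue, fewer cells of a type and less RNA per cell cannot be told apart in any value below.

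**Figure D1:**
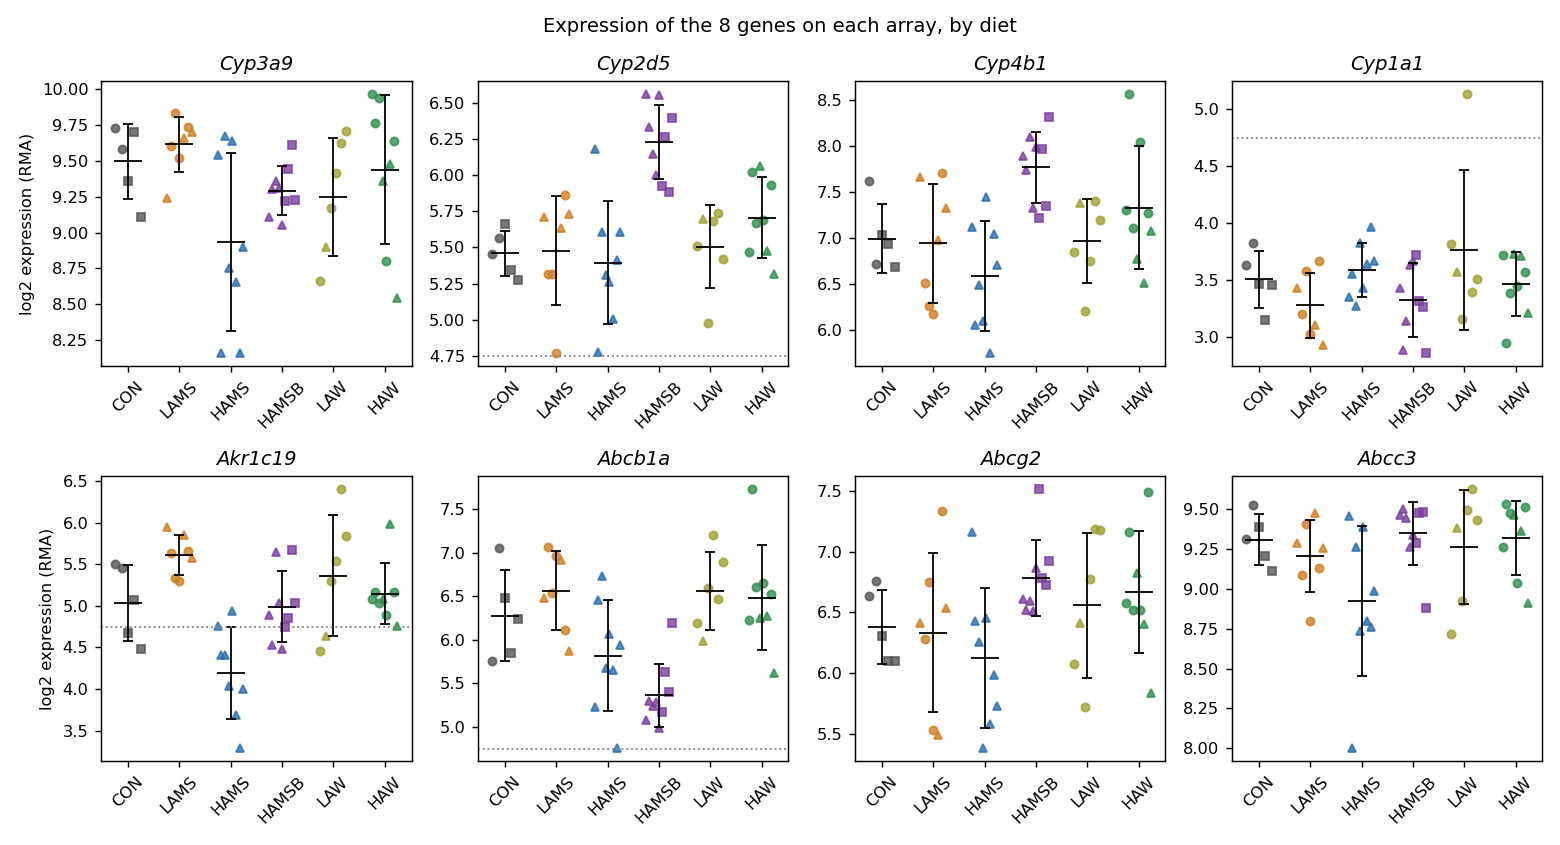
Log2 expression (RMA) of each gene on each array, by diet, with its own scale in each panel. Points are rats (circles, triangles and squares for the 3 styles of file name, which are lower case, code first and number first), the long bar is the diet mean, the whiskers are ± 1 SD, and the dotted line is the low-signal floor at 4.75. Cyp2d5 in HAMSB lies above every LAMS array, Akr1c19 in HAMS lies below every LAMS array, and Cyp1a1 lies under the floor on all but 1 array. The share of all tested genes whose groups separate as fully is not given here.

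Cyp3a9, a steroid- and drug-hydroxylating enzyme of the CYP3A subfamily (chr12:21919955-21960160), was lowest in HAMS. Its log2 value had a lowest, median and highest array of 9.24, 9.66 and 9.83 in LAMS, and of 8.16, 8.83 and 9.67 in HAMS. In HAMSB they were 9.05, 9.30 and 9.61. HAMS was thus the widest group: 5 of its 8 arrays lay below every LAMS array and the other 3, at 9.54 to 9.67, lay among them. The wheat diets were spread nearly as widely, at 8.66, 9.29 and 9.71 in LAW and at 8.55, 9.56 and 9.97 in HAW. The CON arrays read 9.73, 9.59, 9.36, 9.70 and 9.11. The means ran from 9.61 ± 0.19 (SD) in LAMS through CON, HAW, HAMSB and LAW to 8.94 ± 0.62 in HAMS, and no neighbours in that order differed by more than the larger of their SDs.

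HAMS was lower than LAMS in Cyp3a9 by a log2 difference of -0.68 ± 0.20 (SE, limma; 95% interval -1.09 to -0.27), which is 1.60-fold. With the style of the file names as a block it was -0.48, with the lymphoid level as a covariate -0.45, with both -0.08 ± 0.15, and with the absorptive colonocyte level as a covariate -0.44, and in none of these fits did it pass the threshold used below. Over all 10934 genes, 945, 742, 85 and 241 passed in those fits, in that order, against 1545 in the main fit. HAMSB lay between both diets, at -0.32 ± 0.20 against LAMS and 0.36 ± 0.19 against HAMS, and both intervals included 0. HAW exceeded HAMS by 0.50 ± 0.20.

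Cyp2d5, of the CYP2D subfamily that metabolises many basic drugs (chr7:115779981-115784554), stood apart in HAMSB. Its lowest, median and highest arrays were 5.88, 6.26 and 6.56 in HAMSB, 4.77, 5.63 and 5.86 in LAMS, and 4.77, 5.36 and 6.18 in HAMS. Every HAMSB array was above every LAMS array and above 7 of the 8 HAMS arrays, so the groups did not overlap with LAMS and overlapped with HAMS through 1 rat. The share of all tested genes whose groups separate as fully is not given here, and Cyp2d5 was chosen with such differences known. LAW read 4.98, 5.60 and 5.74 and HAW 5.31, 5.68 and 6.06, and the CON arrays read 5.45, 5.57, 5.66, 5.34 and 5.28. The diet means ran in the order HAMSB (6.23 ± 0.26), HAW (5.70 ± 0.28), LAW, LAMS, CON and HAMS (5.39 ± 0.43). The step from HAMSB to HAW, 0.52, was the only one between neighbours that exceeded the larger SD of the pair.

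The Cyp2d5 difference was 0.75 ± 0.15 for HAMSB minus LAMS (95% interval 0.44 to 1.07), or 1.69-fold, and 0.83 ± 0.15 for HAMSB minus HAMS (0.53 to 1.14). HAMS and LAMS differed by -0.08 ± 0.16. Over the alternative settings, single left-out arrays aside, the first of these lay between 0.63 and 0.80 and the second between 0.52 and 0.93. The array also carries probe sets for the paralogues Cyp2d1, Cyp2d3 and Cyp2d4, and how far their transcripts bind the Cyp2d5 probes was not tested.

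Cyp4b1, which hydroxylates fatty acids and activates some plant and aromatic toxicants (chr5:134375807-134413635), was also highest in HAMSB. Its lowest, median and highest arrays were 7.22, 7.89 and 8.32 in HAMSB, 6.17, 6.98 and 7.70 in LAMS and 5.75, 6.60 and 7.44 in HAMS. Of the 9 HAMSB arrays, 6 lay above every LAMS array and 6 above every HAMS array. HAW reached the highest single value (6.51, 7.19 and 8.56), LAW read 6.21, 7.02 and 7.40, and the CON arrays read 7.62, 6.72, 7.03, 6.93 and 6.68. The means ran from 7.77 ± 0.38 in HAMSB to 6.59 ± 0.59 in HAMS without a step between neighbours that exceeded the larger SD.

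For Cyp4b1 the difference was 0.82 ± 0.26 for HAMSB minus LAMS (95% interval 0.30 to 1.35), 1.18 ± 0.25 for HAMSB minus HAMS (0.67 to 1.68, 2.26-fold), and 0.74 ± 0.26 for HAW minus HAMS (0.22 to 1.26). With the absorptive colonocyte level as a covariate these became 0.68, 0.75 and 0.38. Within the 1 style of file name that the diets share they were 0.49 (5 HAMSB against 3 LAMS arrays), 1.22 (5 HAMSB against 8 HAMS) and 0.20 (3 HAW against 8 HAMS). The 3 LAMS arrays of that style had a mean lymphoid level of 5.71, against 6.76 over all LAMS arrays. The 3 HAW arrays include replicate 8, which had the narrowest values. The part of these in the values within the style was not tested.

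Cyp1a1, the classic target of the aryl hydrocarbon receptor (chr8:66991940-66998014), gave low signal. It lay under the floor of 4.75 on 42 of 43 arrays, with diet means from 3.28 in LAMS to 3.76 in LAW. The array above the floor was LAW replicate 4, at 5.13. At this signal no order of the diets can be read, and no difference is given.

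Akr1c19, an aldo-keto reductase of the 1C subfamily of hydroxysteroid dehydrogenases (chr17:70913916-70934959), had its highest mean in LAMS and its lowest in HAMS. In LAMS its lowest, median and highest arrays were 5.30, 5.63 and 5.94, and in HAMS 3.29, 4.22 and 4.94. Every HAMS array was below every LAMS array, and the share of all tested genes that separate as fully is not given here. In HAMSB its lowest, median and highest arrays were 4.48, 4.89 and 5.67, between the other maize diets. There 7 of 9 arrays lay below every LAMS array and 4 above every HAMS array. HAW (4.76, 5.08 and 5.98) was narrow apart from its highest array, while LAW (4.46, 5.42 and 6.40) was the widest group. The CON arrays read 5.50, 5.45, 4.68, 5.07 and 4.48.

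The Akr1c19 means ran from LAMS (5.61 ± 0.24) through LAW, HAW, CON and HAMSB (4.99 ± 0.43) to HAMS (4.19 ± 0.55). The step from HAMSB to HAMS, 0.80, was the only one between neighbours beyond the larger SD. In HAMS 6 of 8 arrays lay under the low-signal floor, against 0 of 7 in LAMS, 3 of 9 in HAMSB and 0 of 8 in HAW, so the size of the HAMS differences rests on low signal. HAMS minus LAMS was -1.42 ± 0.23 (95% interval -1.90 to -0.95), or 2.68-fold lower, HAMSB minus HAMS 0.80 ± 0.22 and HAW minus HAMS 0.95 ± 0.23. HAMSB minus LAMS was -0.63 ± 0.23 (-1.09 to -0.17). In a fit with both the lymphoid covariate and the name style, HAMS minus LAMS was -1.01 ± 0.23, HAMSB minus HAMS 0.44 ± 0.23 and HAW minus HAMS 0.51 ± 0.23. Other reductases of the 1C subfamily are on the array, and binding of their transcripts to these probes was not tested.

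Abcb1a (chr4:26312403-26488456), the P-glycoprotein pump, was lowest in HAMSB. Its lowest, median and highest arrays were 4.99, 5.28 and 6.19 in HAMSB, 5.87, 6.54 and 7.07 in LAMS and 4.75, 5.81 and 6.73 in HAMS. In HAMSB 8 of 9 arrays lay below every LAMS array, and the exception was replicate 9 at 6.19. In HAMS 4 of 8 did, and the HAMSB and HAMS arrays overlapped. LAW read 5.99, 6.53 and 7.20, HAW 5.61, 6.40 and 7.73, and the CON arrays 5.76, 7.06, 6.47, 5.85 and 6.24. The means ran from LAMS (6.56 ± 0.45) through LAW, HAW, CON and HAMS (5.81 ± 0.64) to HAMSB (5.37 ± 0.36), and no neighbours differed by more than the larger SD.

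In Abcb1a, HAMSB minus LAMS was -1.20 ± 0.25 (95% interval -1.70 to -0.70), or 2.30-fold lower, and it lay between -1.27 and -1.06 over the alternative settings. HAMS minus LAMS was -0.75 ± 0.25 (-1.26 to -0.24). That value was -0.44 ± 0.26 with name style as a block, where it did not pass the threshold, and -0.81 ± 0.26 with the lymphoid level as a covariate. HAMSB minus HAMS was -0.45 ± 0.24, with an interval from -0.93 to 0.03. Its close copy Abcb1b, named for that likeness after its values were seen, was at -0.36 ± 0.14 in HAMSB minus LAMS and -0.07 ± 0.15 in HAMS minus LAMS. How far the probes tell both genes apart was not tested.

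Abcg2 (chr4:89006056-89132915), which exports sulphate conjugates, urate and many drugs, ranged widely within diets. Its lowest, median and highest arrays were 6.51, 6.72 and 7.51 in HAMSB, 5.38, 6.12 and 7.16 in HAMS and 5.49, 6.41 and 7.34 in LAMS. LAW read 5.72, 6.59 and 7.18, HAW 5.83, 6.55 and 7.49, and the CON arrays 6.63, 6.76, 6.31, 6.10 and 6.10. The narrow HAMSB group began above 7 of the 8 HAMS arrays, yet the groups overlapped through HAMS replicate 1. The difference was 0.66 ± 0.24 for HAMSB minus HAMS (95% interval 0.18 to 1.14), and with the absorptive colonocyte level as a covariate it was 0.14 ± 0.18. HAMS minus LAMS was -0.21 ± 0.25 and HAMSB minus LAMS 0.45 ± 0.24.

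Abcc3 (chr10:79793571-79839528), which exports glucuronides and bile salts, was lowest in HAMS, within a narrow band of values. Its lowest, median and highest arrays were 8.88, 9.44 and 9.50 in HAMSB, 8.00, 8.89 and 9.46 in HAMS and 8.80, 9.26 and 9.48 in LAMS. LAW read 8.72, 9.41 and 9.63, HAW 8.91, 9.41 and 9.53, and the CON arrays 9.31, 9.52, 9.39, 9.21 and 9.11. The groups overlapped in every comparison. HAMSB exceeded HAMS by 0.43 ± 0.14 (95% interval 0.14 to 0.71), or 1.34-fold, and HAMS minus LAMS was -0.28 ± 0.15. With the lymphoid level as a covariate these were 0.17 ± 0.10 and -0.07 ± 0.10, and with the absorptive colonocyte level 0.11 ± 0.11 and -0.07 ± 0.11.

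**Figure D2:**
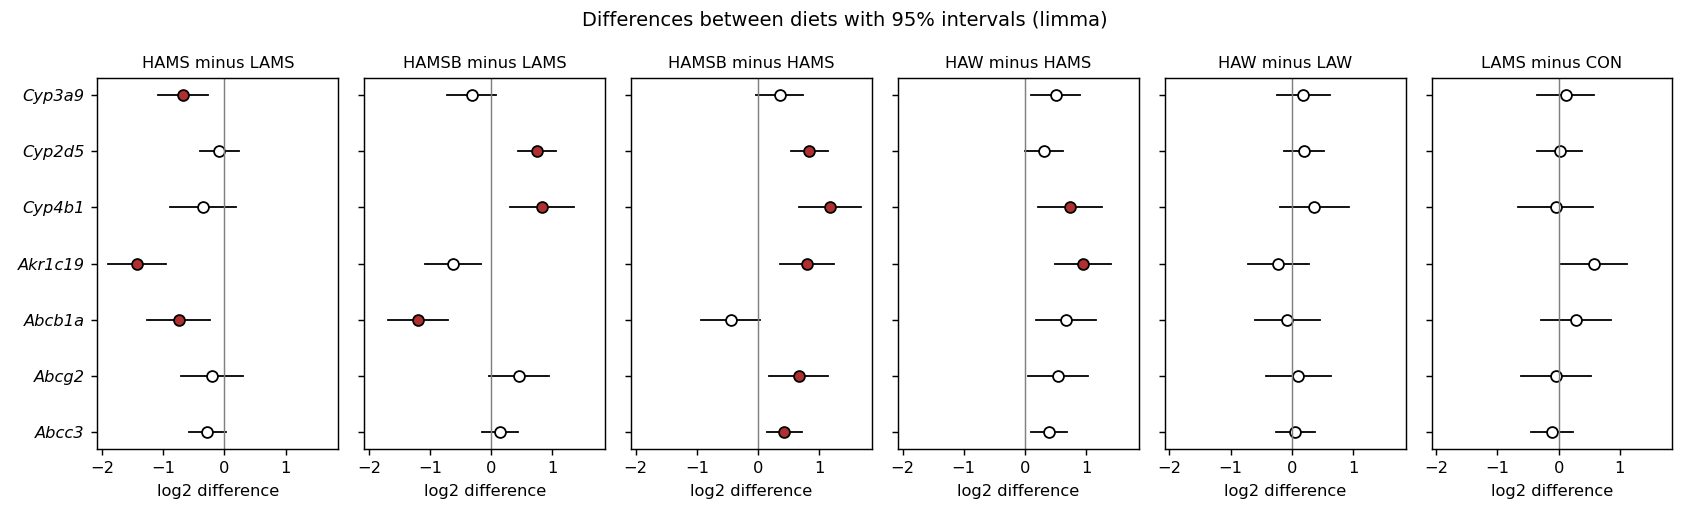
Log2 difference between diets for the 7 tested genes (points) with 95% intervals (bars) from limma, in 6 comparisons. Filled points passed an adjusted p of 0.05 over the 10934 genes, and in the first 4 panels they describe genes that were chosen with such values known. Abcb1a is lower in both high-amylose maize diets than in LAMS, while Cyp2d5 and Cyp4b1 are higher in HAMSB than in LAMS or HAMS.

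The comparison of HAMS with LAMS asks what resistant starch does in a maize diet. Of the 7 tested genes, 3 were lower past the threshold, an adjusted p of 0.05 with limma (Cyp3a9, Akr1c19 and Abcb1a), and 0 were higher. Of all 10934 genes 14.1% passed, 12% lower and 2.17% higher, and nothing is read from the members' count, since their choice used this contrast. The median of the 10934 tested genes differed between arrays, and the source of that was not tested. Centring every array on this median raised all HAMS minus LAMS differences by 0.11. On that scale the calls over all genes split into 466 lower and 484 higher, where they had been 1308 and 237, and Cyp3a9 was at -0.57, Akr1c19 at -1.31 and Abcb1a at -0.64, with Akr1c19 alone past the threshold. Leaving out 1 array at a time kept Akr1c19 past the threshold in all 15 runs, between -1.53 and -1.29. It took Cyp3a9 below the threshold without LAMS replicate 3 or 6 or HAMS replicate 2, 6 or 7 (over all runs -0.78 to -0.57). Abcb1a stayed past it only when the array left out was LAMS replicate 1 or 7 or HAMS replicate 2, 3 or 5 (-0.88 to -0.60).

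The comparison of HAMSB with LAMS asks what butyrylated starch does. Cyp2d5 and Cyp4b1 were higher and Abcb1a lower past the threshold, beside 6.78% of all genes (2.19% higher and 4.59% lower; 239 and 502 genes, or 427 and 603 after centring), and the choice of genes used this contrast too. Cyp2d5 (0.64 to 0.82) and Abcb1a (-1.31 to -1.11) passed in all 16 runs that left out 1 array. Cyp4b1 passed only when that array was LAMS replicate 1, 5, 6 or 7 or HAMSB replicate 6 or 8 (0.69 to 0.95). Akr1c19 came past the threshold, at -0.71, when HAMSB replicate 8 was left out. This comparison shares its LAMS arrays with the one before.

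Butyrylation is set apart by HAMSB minus HAMS, in which Cyp2d5, Cyp4b1, Akr1c19, Abcg2 and Abcc3 were higher past the threshold and 0 genes lower. Of all genes 16.7% passed (14.2% higher and 2.48% lower; 1550 and 271 genes, or 909 and 723 after centring). Cyp2d5, Cyp4b1 and Akr1c19 passed in all 17 runs that left out 1 array. Abcg2 passed only without HAMS replicate 1, 3 or 5 or HAMSB replicate 9 (0.55 to 0.81), and Abcc3 did not pass without HAMS replicate 2, 4, 6 or 7 or HAMSB replicate 1, 2, 3, 7 or 8 (0.29 to 0.50). With the absorptive colonocyte level as a covariate none of the 7 passed, and Cyp2d5 was at 0.52 and Akr1c19 at 0.53. With the lymphoid covariate Cyp2d5 and Cyp4b1 passed and the other 5 did not. Over all 10934 genes, 7 passed with the colonocyte covariate and 279 with the lymphoid covariate, against 1821 in the main fit.

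In HAW minus HAMS, Cyp4b1 and Akr1c19 were higher past the threshold, beside 13.3% of all genes (10.9% higher and 2.4% lower; 1196 and 262 genes, or 532 and 458 after centring). Akr1c19 passed in all 16 runs that left out 1 array, but not in the fit with both style and lymphoid level (0.51), with the colonocyte covariate (0.73), or within 1 name style (1.08, 3 against 8 arrays). Over all 10934 genes, 29, 12 and 1 passed in those 3 fits, against 1458 in the main fit. Cyp4b1 missed the threshold in those 3 fits too (0.43, 0.38 and 0.20), in the fit blocked on name style (0.71, where 808 of all genes passed), and after centring (0.65). Of the runs that left out 1 array, it passed only without HAMS replicate 1 or 5 or HAW replicate 4, 6 or 8 (0.57 to 0.86). Without HAW replicate 8, 1 of the 2 arrays with the narrowest spread of values, 6 genes passed, with Cyp3a9 (0.63), Abcb1a, Abcg2 and Abcc3 added. That run called 3141 of the 10934 genes, the most of the 16 runs, against 1458 with all arrays. This comparison and HAMSB minus HAMS share the 8 HAMS arrays, and only 3 HAW arrays have the name style of those arrays.

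The other comparisons, on which the choice of genes rested less, gave no call. The genes were chosen with earlier results of these arrays known, and those comparisons that include LAMS, HAMS or HAMSB reuse the maize arrays. They are therefore not independent tests. In HAW minus LAW, the effect of amylose in wheat, 0 of the 7 genes and 0% of all genes passed with limma, while 212 of all genes had an unadjusted p under 0.05 and none of the 7 did (from 0.194 for Cyp4b1 to 0.785 for Abcb1a). The differences were 0.19 ± 0.21 for Cyp3a9, 0.20 ± 0.17 for Cyp2d5, 0.37 ± 0.28 for Cyp4b1, -0.22 ± 0.25 for Akr1c19, -0.07 ± 0.26 for Abcb1a, 0.11 ± 0.26 for Abcg2 and 0.06 ± 0.16 for Abcc3. The intervals still allowed changes as large as -0.71 to 0.28 in Akr1c19 and -0.19 to 0.93 in Cyp4b1, so equal levels are not shown.

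The wheat effect minus the maize effect was 1.20 ± 0.34 for Akr1c19 and 0.87 ± 0.29 for Cyp3a9, 0.72 ± 0.39 for Cyp4b1, 0.68 ± 0.37 for Abcb1a, 0.34 ± 0.22 for Abcc3, 0.32 ± 0.36 for Abcg2 and 0.28 ± 0.23 for Cyp2d5. None passed after adjustment with limma, beside 0.0274% of all genes (0.00915% higher and 0.0183% lower). An unadjusted p under 0.05 was found for 1674 of all genes, Akr1c19 and Cyp3a9 among them. The maize side of this contrast had already served to pick the genes, so these values are a description. Both passed without HAW replicate 8, at 1.26 for Akr1c19 and 1.00 for Cyp3a9, and with array weights. Over all 10934 genes, 219 passed without that array and 1119 with array weights, against 3 in the main fit.

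Against the control diet 0 of the 7 genes passed. In LAMS minus CON, the low-amylose Western-type diet against control, 0% of all genes passed with limma, and without adjustment 938 genes had a p under 0.05. Akr1c19 alone among the 7 was one of those, with LAMS higher by 0.58 ± 0.27 (unadjusted p = 0.0351, limma adjusted p = 0.537). Of the 7 LAMS arrays, 5 lay above every CON array. Within the 1 name style both diets share the Akr1c19 difference was 0.01 ± 0.14 (4 LAMS against 2 CON arrays). These arrays differed in mean lymphoid level, 7.56 in LAMS against 6.13 in CON, and its part in that value was not tested. For the other tested genes, LAMS minus CON over all arrays ran from -0.10 for Abcc3 to 0.29 for Abcb1a.

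Over the 5 Western-type diets against CON, 1.44% of all genes passed with limma (0.0915% higher and 1.34% lower) and 0 of the 7. These 157 genes were 10 higher and 147 lower, and after centring 0 passed. With 1 array left out 0 to 221 genes passed, with 0 when that array was CON replicate 3 or 4. The differences of the 7 genes ran from -0.19 to 0.20, with unadjusted p (limma) from 0.174 to 0.910, while 1834 of all genes had an unadjusted p under 0.05. LAW minus LAMS, wheat against maize at low amylose, gave 0% of all genes, 192 of them at an unadjusted p under 0.05. Cyp3a9 was at -0.37 ± 0.22 there (limma adjusted p = 1.00), and the other 6 between -0.25 and 0.23, none with an unadjusted p under 0.05.

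The 8 genes did not vary as 1 group from rat to rat. Cyp2d5 and Cyp4b1 had Pearson's r = 0.76 over the 43 arrays and 0.62 after each diet's mean was subtracted, which leaves the variation between rats on the same diet. Cyp3a9 followed Abcc3 (0.72 and 0.72) and Akr1c19 (0.68 and 0.60). Cyp2d5 and Abcb1a ran against each other over the arrays (-0.38), with -0.07 within diets. Abcb1a had its highest within-diet r, 0.31, with Cyp3a9. These are descriptions over arrays that share scan, normalisation and tissue makeup.

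**Figure D3:**
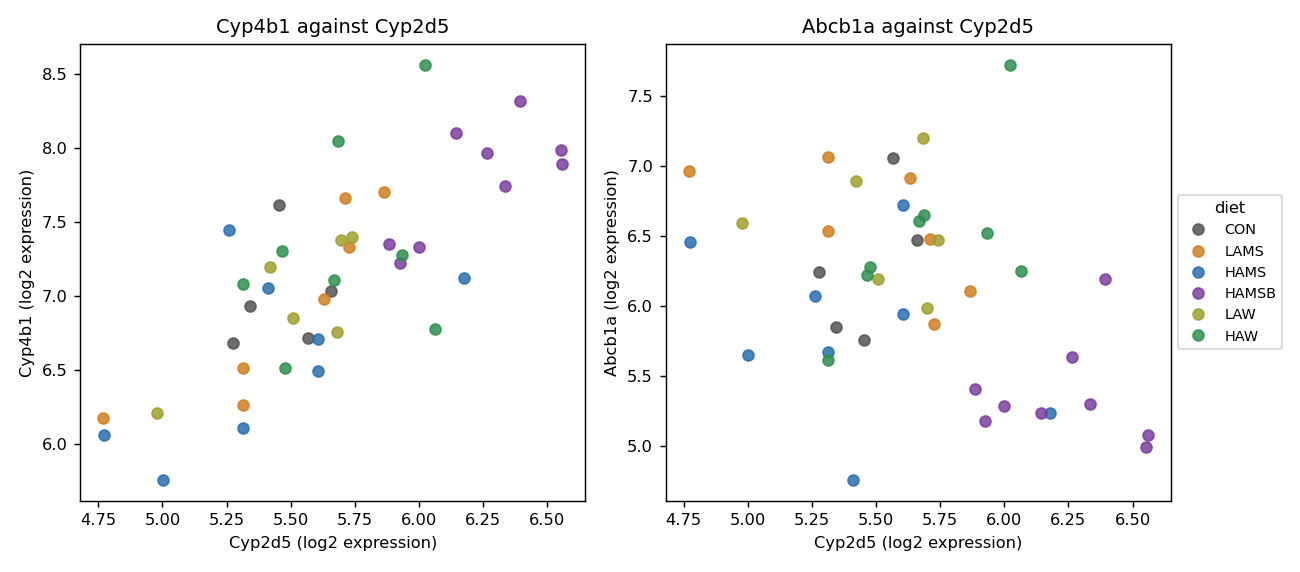
Log2 expression (RMA) of Cyp4b1 (left) and Abcb1a (right) against Cyp2d5, 1 point per array, coloured by diet. Cyp4b1 is high where Cyp2d5 is high (r = 0.76), and in the right panel the HAMSB arrays make up most of the lower right corner (r = -0.38 over all arrays, -0.07 within diets).

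By the rule of highest r over the 43 arrays, the genes most like Cyp2d5 were its paralogue Cyp2d4 (0.82), Tst (0.77) and Clec2e (0.76). Most like Cyp4b1 were Cyp2d5, Pdzk1ip1 (0.76) and Apoa1 (0.73), and most like Akr1c19 were Creb3l4 (0.83), Appl2 (0.80) and St7l (0.79). Cyp3a9 had Pof1b (0.90), Tc2n (0.90) and Rab18 (0.90). Abcc3 had Vdr (0.92), the vitamin D receptor, with Kcnq1 (0.92) and Ptprf (0.91). Abcg2 had Hsd17b11 (0.73), Car4 (0.71) and Ptk6 (0.71), and Abcb1a had Ranbp6 (0.78), Ranbp2 (0.78) and Papola (0.77).

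Within diets the leading genes were Nlrp6 (0.75), the water channel Aqp8 (0.75) and Tst (0.74) for Cyp2d5, and Apoa1 (0.74), Pdzk1ip1 (0.72) and Aqp8 (0.69) for Cyp4b1. For Akr1c19 they were Creb3l4 (0.74), the bile acid receptor gene Nr1h4 (0.73) and Cep70 (0.71). Nckap1 (0.89), Pof1b and Tc2n led for Cyp3a9, Il1rap (0.75), Arhgef11 and Hsd17b11 for Abcg2, and Tjp3 (0.91), Vdr and Ptprf for Abcc3. Abcb1a was followed less closely, by Rev3l (0.63), Synj1 (0.61) and Ranbp6 (0.58).

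Most of these genes varied with markers of the cells in the colon piece, Abcb1a and Cyp1a1 less so. Within diets, r with the lymphoid level was -0.78 for Abcc3, -0.60 for Cyp3a9, -0.53 for Cyp2d5, -0.53 for Akr1c19, -0.52 for Abcg2, -0.35 for Cyp4b1, -0.12 for Cyp1a1 and 0.13 for Abcb1a. With the absorptive colonocyte level it was 0.75 for Abcc3, 0.72 for Abcg2, 0.70 for Cyp2d5, 0.62 for Cyp3a9, 0.56 for Cyp4b1, 0.39 for Akr1c19 and 0.05 for Abcb1a. Cyp3a9 was highest with the fibroblast list (0.78). The mean of that list was 9.50 ± 0.37 in HAMS against 10.07 ± 0.25 in LAMS, and 5 of its 7 genes were lower in HAMS past the threshold, beside 12% of all genes. The pair of hepatocyte-list genes above the floor, Apoa1 and Apoc3, had a mean that followed Cyp4b1 (0.70) and Cyp2d5 (0.61), with albumin and 6 further hepatocyte genes under the floor. The part of cell makeup in the differences beyond the covariate fits given above was not tested.

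**Figure D4:**
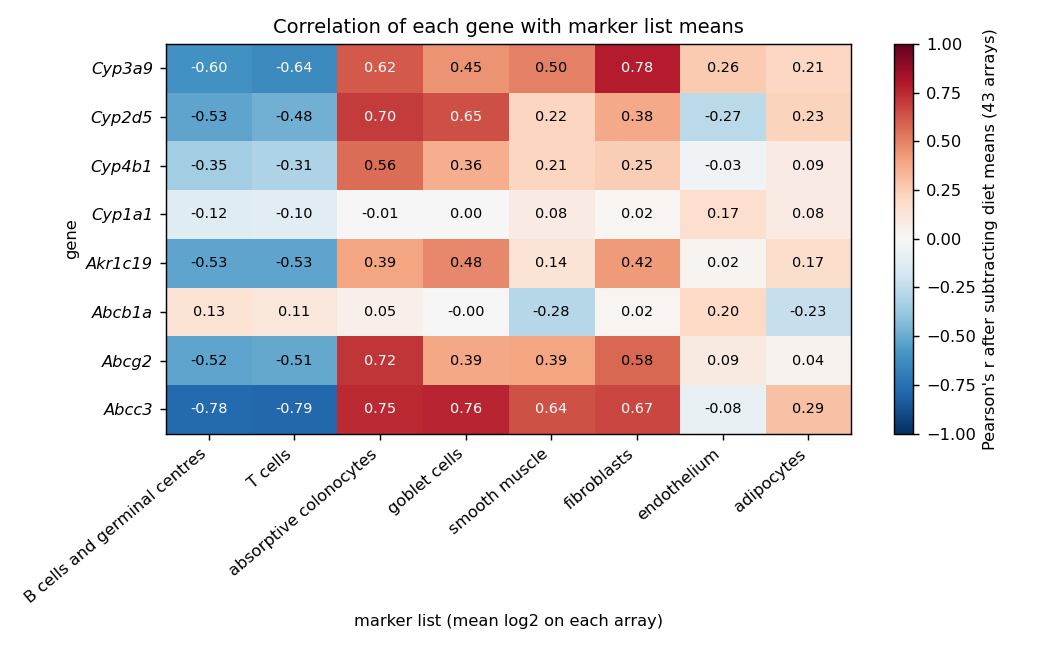
Pearson's r, after subtraction of diet means, between each of the 8 genes and the mean log2 value of each marker list over 43 arrays. The lymphoid columns are negative and the absorptive colonocyte column positive for Cyp3a9, Cyp2d5, Cyp4b1, Akr1c19, Abcg2 and Abcc3, while Abcb1a and Cyp1a1 stay between -0.28 and 0.20.

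Related genes were read from lists that left out the 8 genes. Of 65 other cytochromes P450 on the array, 27 passed the low-signal filter. In HAMS minus LAMS 6 of the 27 were lower and 1 higher past the threshold, with a list median of -0.05 against -0.08 over all genes, beside the 12% and 2.17% of all genes already given. They included Cyp3a62, a further CYP3A enzyme (-0.86 ± 0.21), the arachidonic acid epoxygenase Cyp2j4 (-0.68 ± 0.21) and the sterol hydroxylase Cyp27a1 (-0.65 ± 0.20). The vitamin D-activating hydroxylase Cyp27b1 was the higher one (0.22 ± 0.07). HAMSB minus HAMS, where 14.2% of all genes were higher, had 8 of the 27 higher, with Cyp2t1 at 0.71 ± 0.14, Cyp27a1 at 0.61 ± 0.19 and Cyp2d4 at 0.57 ± 0.13, and 1 was lower, the retinoid-metabolising Cyp2s1 at -1.07 ± 0.37. In HAMSB minus LAMS 1 of the 27 passed, beside 6.78% of all genes: Cyp2d4 (0.50 ± 0.13, from 6.84 ± 0.20 to 7.33 ± 0.20). Cyp2s1 was lower in HAW than in HAMS as well (-1.11 ± 0.38), where 7 others were higher, led by Cyp3a62 (0.84 ± 0.20), beside 10.9% higher among all genes. After centring, the HAMS minus LAMS calls were 3 lower and 2 higher with a median of 0.06, and the HAMSB minus HAMS calls 4 higher and 1 lower.

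Of 8 tested aldo-keto reductases beside Akr1c19, 4 were lower and 0 higher in HAMS than in LAMS (list median -0.49), and 6 were higher and 0 lower in HAMSB than in HAMS (median 0.54 against 0.07 over all genes). Among all genes 12% were lower in HAMS than in LAMS, and 14.2% were higher in HAMSB than in HAMS. The hydroxysteroid dehydrogenases Akr1c15 (-0.81 ± 0.23) and Akr1c14 (-0.81 ± 0.25) and the aflatoxin aldehyde reductase Akr7a3 (-0.58 ± 0.19) were lower in HAMS. After centring 1 of the 8 was lower in that comparison (median -0.38) and 4 were higher in HAMSB than in HAMS (median 0.48). Akr1b8 (1.03 ± 0.20), Akr7a3 (0.94 ± 0.18) and Akr1c15 (0.77 ± 0.21) were higher in HAMSB than in HAMS. In HAMSB minus LAMS 0 of the 8 passed, with Akr1b8 nearest at 0.60 ± 0.21. HAW exceeded HAMS in 5 of the 8 and was lower in 0 (median 0.58 against 0.07 over all genes), beside 10.9% higher among all genes. After centring it did so in 2.

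Of 28 tested ABC transporters beside the 3 pumps, 6 were lower and 1 higher in HAMS than in LAMS (median -0.11), with Abcg3l3 at -1.04 ± 0.21, Abca8a at -0.88 ± 0.20 and the mitochondrial Abcb6 at -0.60 ± 0.15, and the sulphonylurea receptor Abcc8 higher at 0.32 ± 0.10. Among all genes 12% were lower and 2.17% higher in that comparison. HAMSB exceeded HAMS in 5 and was lower in 0, beside the 14.2% higher among all genes, with Abcb6 at 0.61 ± 0.14, Abcg4 at 0.54 ± 0.19 and Abcb10 at 0.39 ± 0.14. In HAMSB minus LAMS 1 of the 28 passed, beside 6.78% of all genes: Abcc8 at 0.32 ± 0.10, and none was lower. After centring, HAMS minus LAMS had 4 lower and 1 higher (median 0.00), and HAMSB minus HAMS 2 higher and 2 lower. HAW exceeded HAMS in 7 of the 28 (10.9% of all genes), with Abcg3l3 at 1.00 ± 0.20, Abca8a at 0.86 ± 0.19 and Abcb6 at 0.55 ± 0.14, and in 4 after centring.

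Conjugating enzymes, which attach sulphate, glucuronide or glutathione, had 2 of 22 (9.09%) lower in HAMS than in LAMS, no larger a share than the 12% among all genes: the sulphotransferase Sult1b1 (-0.75 ± 0.21) and the glutathione transferase Gstm2 (-0.65 ± 0.21). Of the 22, 7 were higher in HAMSB than in HAMS and 0 lower, beside 14.2% higher and 2.48% lower among all genes. The largest were Gstm2 at 0.86 ± 0.20, Sult1b1 at 0.57 ± 0.19 and the cholesterol sulphotransferase Sult2b1 at 0.52 ± 0.12. Of 14 organic ion carriers, 1 was lower (Slco2b1, -0.41 ± 0.10) and 1 higher (Slc22a20, 0.32 ± 0.11) in HAMS than in LAMS, a combined share of 14.3% beside 14.1% of all genes. Another 4 calls among the 14 carriers, all higher, came in HAMSB minus HAMS, beside the same 14.2% of all genes. The largest were Slc22a18 at 0.55 ± 0.15, the prostaglandin carrier Slco2a1 at 0.48 ± 0.13 and Slco2b1 at 0.46 ± 0.09. After centring, HAMSB minus HAMS had 5 conjugating enzymes and 3 carriers higher and 0 lower, and the carriers' medians changed sign, to 0.08 in HAMS minus LAMS and 0.00 in HAMSB minus HAMS. HAW exceeded HAMS in 2 of the 22 conjugating enzymes and 1 of the 14 carriers, beside 10.9% of all genes, and in 0 of either after centring.

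**Figure D5:**
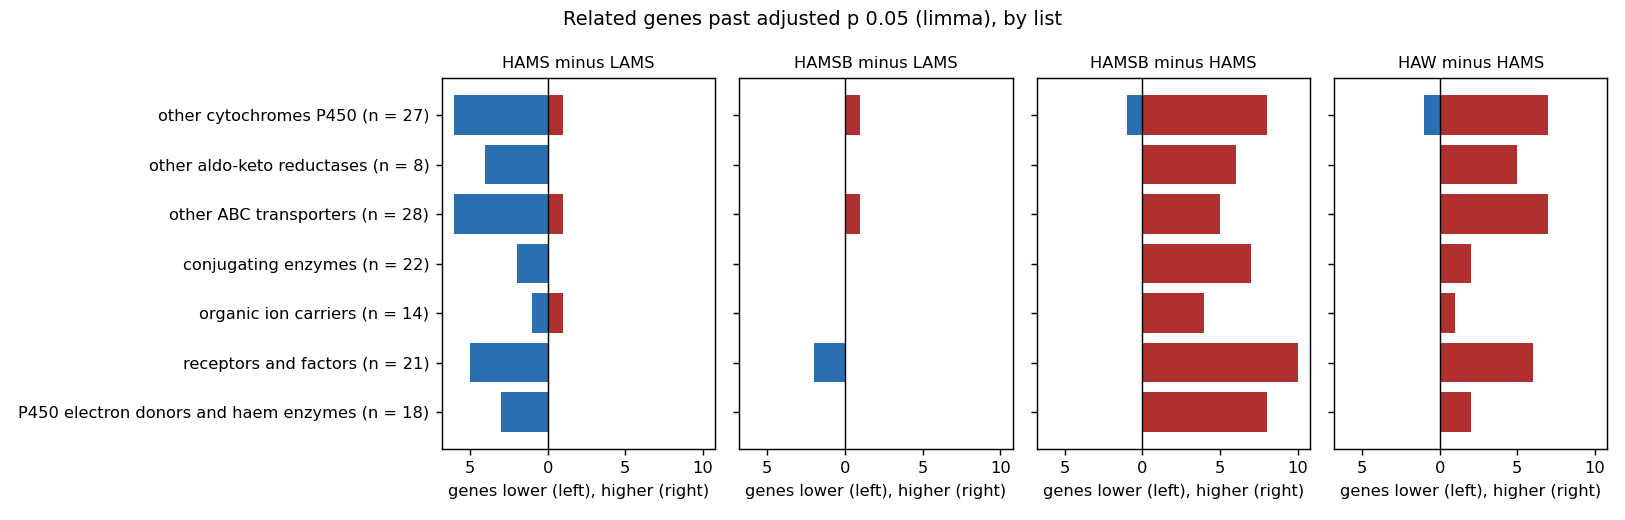
Number of tested genes of 7 lists, without the 8 genes, that were lower (blue, left) or higher (red, right) past an adjusted p of 0.05 with limma in 4 comparisons. HAMSB minus HAMS has the longest bar to the right in 6 of the lists and HAW minus HAMS in the other ABC transporters (7 against 5), while HAMSB minus LAMS has at most 2 genes in any list. Among all genes 14.2% were higher in HAMSB minus HAMS, 10.9% higher in HAW minus HAMS and 12% lower in HAMS minus LAMS.

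Of 21 tested receptors and transcription factors of this response, 5 were lower and 0 higher in HAMS than in LAMS. Among all genes 12% were lower and 2.17% higher. The liver receptor homologue gene Nr5a2 was at -0.68 ± 0.17, Nr1h4 at -0.58 ± 0.20 and the fatty acid receptor gene Ppara at -0.54 ± 0.16. Between HAMSB and HAMS 10 were higher in HAMSB and 0 lower (median 0.33 against 0.07 over all genes), beside 14.2% higher and 2.48% lower among all genes. The largest were the intestinal factor Cdx2 at 0.84 ± 0.21, Pparg at 0.58 ± 0.16 and Nr1i2 at 0.52 ± 0.16. In HAMSB minus LAMS 0 were higher and 2 lower, beside 4.59% lower among all genes: the glucocorticoid receptor gene Nr3c1, at -0.68 ± 0.15, and Arnt, the partner of the aryl hydrocarbon receptor, at -0.35 ± 0.11. Nr1i2 had means of 7.97 ± 0.25 in LAMS, 7.51 ± 0.41 in HAMS and 8.03 ± 0.25 in HAMSB. After centring 2 of the 21 were lower in HAMS than in LAMS and 6 higher in HAMSB than in HAMS. HAW exceeded HAMS in 6 of the 21 and was lower in 0, beside 10.9% higher among all genes. After centring 5 were higher and 1 lower there.

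The last list held the electron donors of P450 enzymes and the enzymes of haem synthesis, 18 of them tested. In HAMS minus LAMS 3 were lower and 0 higher, beside 12% lower and 2.17% higher among all genes: Alas1, the rate-limiting enzyme of haem synthesis (-0.56 ± 0.18), cytochrome b5 (Cyb5a, -0.49 ± 0.17) and its reductase Cyb5r3 (-0.36 ± 0.13). HAMSB exceeded HAMS in 8 of the 18 and was lower in 0, beside 14.2% higher and 2.48% lower among all genes. The largest were Cyb5a at 0.79 ± 0.16, Alas1 at 0.69 ± 0.17 and Cyb5r3 at 0.66 ± 0.12. HAMSB minus LAMS gave 0 of 18. After centring, HAMS minus LAMS gave 0 of 18 and HAMSB minus HAMS 6 higher. HAW exceeded HAMS in 2 of the 18, beside 10.9% of all genes, and in 0 after centring. In these lists HAW minus LAW, LAW minus LAMS and LAMS minus CON gave 0 calls with limma.

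Against CON, 4 genes over all 7 lists passed in the 5 Western-type diets, all lower, beside 1.34% of all genes: Cyp2f4 (-0.49 ± 0.13, adjusted p = 0.0401), the potassium channel subunit Abcc9 (-0.42 ± 0.09, adjusted p = 0.0282), the carrier Slco3a1 (-0.34 ± 0.09, adjusted p = 0.0460) and Cyb5r3 (-0.44 ± 0.12, adjusted p = 0.0409), each by limma over 10934 genes. They were 1 each of the 27 cytochromes P450, 28 ABC transporters, 14 carriers and 18 electron donors and haem enzymes. None of the 8 aldo-keto reductases, 22 conjugating enzymes or 21 receptors and factors passed. After centring none of the 4 genes passed, since 0 of all genes did, and the same held without CON replicate 3 or 4. This contrast includes the maize arrays on which the choice of the 8 genes mainly rested.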

How the data were processed

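Total RNA from 43 pieces of rat distal colon was hybridised to 1 Affymetrix array each. The authors deposited log2 values for 29214 probe sets, made with RMA (background correction, quantile normalisation and summary of probe sets) per the submitters' processing notes; the version is not given in the sources used here. Values ran from 1.31 to 14.05, and the number of arrays limits the precision. Of the probe sets, 15310 carried 1 gene symbol, 323 several and 13581 none. Only those with 1 symbol were named, with the probe set of highest mean kept for each of 14506 symbols.

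A gene was tested where its median over the arrays reached the 25th percentile of probe sets with a symbol (4.75), which left 10934. Differences came from limma 3.58.1 in R 4.3.3 with 1 mean per diet over all 43 arrays (37 residual degrees of freedom), two-sided, with Benjamini-Hochberg adjustment over 10934 genes and a threshold of 0.05. The fitting code was tested on simulated data. No 2 arrays held the same values. Each array is a different rat, so p-values measure the spread between rats, with any shared caging or scan day not given in the labels. The labels write HAM for the HAMS samples.

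The members, the gene lists and the marker lists were chosen with earlier results of these data known, and a list's count is therefore no independent support. Besides the members, the text names the 3 genes most correlated with each member, over the arrays and within diets, and up to 3 genes of each list per direction with the largest difference past the threshold, or the gene with the smallest p where none passed. Alternatives changed the filter, the probe sets adjusted over, the prior, array weights, centring, blocks (name style, animal number, replicate number), the lymphoid covariate and single arrays. Leaving out the 2 arrays with the narrowest values, and the colonocyte covariate, were added after seeing the data. Replicate numbers were checked for pairing and the samples share only a number.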

Additional observations from a re-analysis of the deposited data

Results flagged for a closer look

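In 4 of the 48 groups of a gene and a diet, 1 array lay far from the rest of its diet, its gap to the nearest array taking up more of the group's range than Dixon's 95% value allows. Chance alone marks about 1 in 20 such groups. Cyp1a1 read 5.13 in LAW replicate 4, the only array of the 43 above the low-signal floor for this gene. Akr1c19 read 5.98 in HAW replicate 6, above the other 7 HAW arrays. Abcg2 read 7.51 in HAMSB replicate 6, above the other 8 of that diet. Abcc3 read 8.88 in HAMSB replicate 9, below the other 8, and the same rat had the highest Abcb1a value of its diet, 6.19. Each of the 4 lies in a different gene.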

How the results depend on the processing

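The number of the 7 genes past the threshold is given first for HAMS minus LAMS (3 as reported), then HAMSB minus HAMS (5), HAMSB minus LAMS (3) and HAW minus HAMS (2). It was 3, 4, 2 and 1 with no filter, with a trended prior and with the animal numbers as a block, 2, 3, 2 and 1 with the stricter filter, which leaves Cyp2d5 and Akr1c19 untested, 3, 4, 3 and 1 over all probe sets, and 1, 3, 3 and 1 after centring. Array weights gave 4, 6, 5 and 7, and 2 for the wheat effect minus the maize effect, where 0 was reported. Over all genes the weights gave 4059, 3791, 3724 and 4742 calls, and 1119 for the wheat effect minus the maize effect. The name style as a block gave 1, 4, 2 and 1, the lymphoid covariate 2, 2, 4 and 1, both 1, 2, 3 and 0, the colonocyte covariate 1, 0, 4 and 0, arrays of 1 style only 1, 2, 3 and 0, and the arrays without the 2 narrowest 2, 3, 3 and 4. Over all genes the main fit gave 1545, 1821, 741 and 1458 calls, in the same order. The style block gave 945, 3334, 327 and 808, and the lymphoid covariate 742, 279, 1493 and 483. Both gave 85, 563, 898 and 29, and the colonocyte covariate 241, 7, 1377 and 12. Arrays of 1 style only gave 130, 2032, 890 and 1, and the arrays without the 2 narrowest 1034, 1563, 1131 and 2209. With 1 array left out the counts ran from 1 to 3, 3 to 5, 2 to 4 and 1 to 6, and from 0 to 2 for the wheat effect minus the maize effect (2 without HAW replicate 8). The other comparisons gave 0 members in every setting. Beyond the genes the stricter filter removed, the cause of these changes was not tested.

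The replicate number as a block gave 1, 4, 3 and 3. Same-numbered arrays of different diets had a median correlation of -0.05 over 94 pairs, and 4 of 43 arrays correlated best with their own number.

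Over all genes, HAMS minus LAMS had 1545 calls, against 4059 with weights, 2547 over all probe sets, 945 with the style block, 602 with the replicate block, 950 after centring, 742 with the lymphoid covariate, 85 with both, 241 with the colonocyte covariate, 130 within 1 style and 614 to 2425 with 1 array left out (lowest without LAMS replicate 6, highest without HAMS replicate 1). HAMSB minus HAMS had 1821, with 7 under the colonocyte covariate and 923 to 2868 with 1 array left out. HAMSB minus LAMS had 741, with 158 to 1384, and HAW minus HAMS 1458, with 1 within 1 style and 539 to 3141 (highest without HAW replicate 8). The 5 Western-type diets against CON had 157, with 0 after centring, 31 with the replicate block, 742 with weights and 0 to 221 with 1 array left out (1 without CON replicate 1, 60 without CON replicate 2, 0 without CON replicate 3 or 4 and 90 without LAW replicate 3). LAMS minus CON had 0, with 36 under the style block and 234 with weights.

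No value past the threshold changed sign. In HAW minus LAW several that did not pass changed sign. Abcb1a was 0.040 with the style block, 0.015 with the replicate block, 0.040 with style and lymphoid level, 0.052 without the 2 narrowest arrays and 0.076 within 1 style. Under the colonocyte covariate Abcg2 was -0.022 and Abcc3 -0.023. With 1 array left out Abcb1a ran from -0.25 to 0.056, Abcg2 from -0.058 to 0.235 and Abcc3 from -0.052 to 0.130. Elsewhere, values short of the threshold turned with style and lymphoid level together for Cyp3a9 (-0.14 in HAW minus HAMS and -0.15 in HAMSB minus HAMS) and Abcg2 (0.49 in HAMS minus LAMS, -0.21 in HAW minus HAMS and -0.29 for the wheat effect minus the maize effect), and Cyp2d5 reached 0.13 and Abcg2 0.13 in HAMS minus LAMS with the colonocyte covariate, where Abcg2 was also at -0.15 for the wheat effect minus the maize effect. The remaining turns were smaller. The next probe set could not be tried, since each gene has 1, and the Western-type diets against CON were not fitted within 1 name style, since HAMS shares none with CON. Low signal limits Cyp1a1 throughout and Akr1c19 in HAMS.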
